A study of Mus musculus with 2 samples.

Results

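The distal 3'UTR (d3'UTR) of a transcript is the stretch of its last exon that lies beyond the most proximal annotated poly(A) site (pA), and it is present only in transcripts that were not cleaved at that site. Distal 3'UTRs of at least 200 and under 1000 bp are described here. They were chosen by length alone, among transcripts with a distal 3'UTR and an upstream part of the last exon in the deposited table of exon parts. The rule found 3169 transcripts, which is 36.3% of the 8740 transcripts with both parts. They belonged to 2458 genes. Their median distal length was 526 bp and their median upstream length was 627 bp. The cells sequenced were mTEChi, medullary thymic epithelial cells rich in MHC class II, which present antigens of many peripheral tissues to developing T cells, many of these antigens being switched on by the transcriptional regulator Aire. The Clp1 knockdown library came from the GFP-positive cells, and the control (Ctr) library from the GFP-negative cells, of 1 lentigenic mouse on the B6 background, with 1 library per group. The cells of both libraries came from an animal with 3 doxycycline-inducible hairpins against Clp1 behind a TRE3G promoter, a ZsGreen reporter and a TetOn3G transactivator under an EF1 promoter, which is not restricted to the thymus. Both also had doxycycline, which the mouse was fed for 2 weeks from an age of 3 weeks at 2 g per kg. The sort kept CD45- cells with much MHC class II and little to moderate Ly51.

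When an mRNA is made, a protein complex cuts it at a poly(A) site and a poly(A) tail is added to the new end. The complex finds the site mostly through a hexamer, AATAAA or its commonest variant ATTAAA, a short way upstream of the cut. A gene with more than 1 such site in its 3'UTR can give short and long isoforms that encode the same protein and differ in the binding sites for microRNAs and RNA-binding proteins in their 3'UTR. Clp1 is an RNA kinase and, with Pcf11, a subunit of cleavage factor II of this complex. The d3'UTR ratio divides the reads per base of the distal part by those of the upstream part of the last exon, so that it is low where most transcripts end at the proximal pA and near 1 where most run on to the annotated end.

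The proximal pA and the annotated end of 11 of these genes are printed because the results below turn on them: abundant genes with a low ratio (Ly6e, Fezf2, Jun), abundant genes with a high ratio (Dusp1, Cnot8), genes with the most different ratios in the 2 libraries (Pes1, Rabgap1l, Ctnnal1, Mdh1, Slc52a2) and a gene of the cleavage complex itself (Pcf11). Each line holds the last 30 bases before the site, 5' to 3' on the strand of the gene, from the NCBIM37 (mm9) genome, and capitals mark AATAAA or ATTAAA where these 30 bases hold one. All are 3'UTR positions, placed through the last exon of the gene in GENCODE vM1 where its length matched that in the deposited table within 100 bp.
Ly6e proximal pA (NM_001164036, chr15:74789732-74789761, plus strand): tagtgcctcaAATAAAccgttcacaccctt
Ly6e annotated end (NM_001164036, chr15:74790306-74790335, plus strand): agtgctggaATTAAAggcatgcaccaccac
Fezf2 proximal pA (NM_080433, chr14:13174609-13174638, minus strand): atattacatatatatgactcAATAAAtaga
Fezf2 annotated end (NM_080433, chr14:13174406-13174435, minus strand): aagcacccaggagcatgggccgaaacactt
Jun proximal pA (NM_010591, chr4:94716401-94716430, minus strand): gctgattactgtcAATAAAcagcttcctgc
Jun annotated end (NM_010591, chr4:94715727-94715756, minus strand): tgtattcaaataatggtttttaaaatcttg
Dusp1 proximal pA (NM_013642, chr17:26642758-26642787, minus strand): tgtctactcatagaagaaccaaatacctca
Dusp1 annotated end (NM_013642, chr17:26642536-26642565, minus strand): caacagAATAAAttatgacgtttctattga
Cnot8 proximal pA (NM_026949, chr11:57931320-57931349, plus strand): aacaaaccagtaaaatgtctatgactctta
Cnot8 annotated end (NM_026949, chr11:57932067-57932096, plus strand): ttgtaaAATAAAgattgctttttaaccatt
Pes1 proximal pA (NM_022889, chr11:3879190-3879219, plus strand): cttttattATTAAAtggttggatctttaca
Pes1 annotated end (NM_022889, chr11:3879978-3880007, plus strand): atgtacaaaagtatgtatggttcacacttc
Rabgap1l proximal pA (NM_013862, chr1:162187116-162187145, minus strand): agaagaaaaAATAAAaaccaaatggtgtat
Rabgap1l annotated end (NM_013862, chr1:162186703-162186732, minus strand): aaATTAAActtttaaaaatcggtgttttaa
Ctnnal1 proximal pA (NM_018761, chr4:56824363-56824392, minus strand): attttaaAATAAAtatttttagtcttttta
Ctnnal1 annotated end (NM_018761, chr4:56823807-56823836, minus strand): cttcAATAAAaatcgtacattcaaactgaa
Mdh1 proximal pA (NM_008618, chr11:21457252-21457281, minus strand): gtgctgcaatctaAATAAAagtatattcaa
Mdh1 annotated end (NM_008618, chr11:21456695-21456724, minus strand): tattagtaaatattatctatATTAAAgtgc
Slc52a2 proximal pA (NM_029643, chr15:76371791-76371820, plus strand): ggatttgcacAATAAAacatcttcatccaa
Slc52a2 annotated end (NM_029643, chr15:76372531-76372560, plus strand): cagcgAATAAAgtttccagcttctatagtc
Pcf11 proximal pA (NM_029078, chr7:99792764-99792793, minus strand): aattataAATAAAaaatatttttgctatcc
Pcf11 annotated end (NM_029078, chr7:99792222-99792251, minus strand): catacatgtAATAAActgaatgatgaacaa
All 3 printed genes with a low ratio have AATAAA before the proximal pA, at 10 to 20 bases counted from its first base to the site. The 2 printed genes with a high ratio have neither hexamer there and AATAAA before the annotated end. These are examples, and other genes differ. Pdia3 has a low ratio (0.025 in Clp1 knockdown, 0.034 in Ctr) with neither hexamer in the 50 bases before the proximal pA. Rnd3 has AATAAA there and a high ratio (1.05 in Clp1 knockdown, 0.947 in Ctr). Where a line has no capitals, the hexamer may still lie further upstream: in the last 50 bases, the annotated end of Fezf2 has ATTAAA and that of Jun has AATAAA.

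The table of whole transcripts held 37524730 reads in Clp1 knockdown and 28464803 in Ctr. Clp1 itself had 812 reads in Clp1 knockdown and 1573 in Ctr, which after scaling is 39.7% of the Ctr level (log2 -1.33, 95% counting interval -1.46 to -1.21). All 17 markers of mature mTEC had reads in both libraries, with a median log2 change of 0.34 and 832295 against 747748 scaled reads. Markers of other cells were lower in Clp1 knockdown by 2-fold or more in 10 of 10 endothelial genes (2350 against 26238 scaled reads), 7 of 7 red cell genes (4440 against 156140), 16 of 20 thymocyte genes (10300 against 30299), 5 of 7 B cell genes (789 against 2215), 8 of 11 fibroblast and mural cell genes (10827 against 20826), 7 of 12 dendritic cell and macrophage genes (17545 against 16193, higher in sum, and 1 gene 2-fold higher) and 6 of 10 genes of cortical epithelium (44782 against 59653), and none of the genes on these lists was at 0 in either library. What part this difference in cell content has in the d3'UTR ratios was not tested. Fewer cells of a type and less RNA per cell cannot be told apart in such libraries.

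Since isoforms of a gene hold the same reads, each symbol was represented by its transcript with the most last-exon reads, and is called a gene. The 32 transcripts without a symbol were each counted as a gene, and some are isoforms of a named one, so that the 2458 genes hold 2449 distinct sets of reads, and the 2108 genes compared below hold 2100. Of the 2458 genes, 59 had no last-exon read in either library, and 2108 had at least 10 in each. The other 350 were under 10 reads in Ctr only (178 genes), in Clp1 knockdown only (50) or in both (122). With 1 library per group no test is possible. Every 95% interval of a gene is a counting interval, which covers the sampling of reads and not the difference between mice or between sorts, and the interval of a median covers the spread across genes, which are not replicates.

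The d3'UTR ratio had almost the same median in both libraries. It was 0.543 in Clp1 knockdown (interval 0.498 to 0.578, 2340 genes with an upstream read) and 0.491 in Ctr (0.452 to 0.541, 2241 genes), and these intervals overlap. Summed over the genes, 30.6% of last-exon reads in Clp1 knockdown and 30.2% in Ctr were distal. A ratio above 1 was found in 24.3% of genes in Clp1 knockdown and 24.7% in Ctr. Distal reads were at 0 in 9.32% of the genes in Clp1 knockdown, against 16.5% in Ctr, a library with fewer reads.

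Gene by gene, the log2 change of the ratio (Clp1 knockdown over Ctr, with 0.5 reads added to each part) had a median of 0.037 (interval 0.0030 to 0.069, 2108 genes), so that it lay just above 0, and its middle 50% of values ran from -0.51 to 0.65. With at least 100 last-exon reads in each library the median was 0.030 with an interval that holds 0 (-0.0035 to 0.060, 1640 genes). A gene was counted as higher or lower in Clp1 knockdown when its ratio differed by at least 2-fold and its counting interval excluded no change. By this rule 319 genes (15.1%, 316 distinct sets of reads) had a higher ratio and 251 (11.9%) a lower one. Over all 5732 genes with a distal 3'UTR of any length and the same number of reads, 13.9% were higher and 12.6% lower, so that the shares of the class lie near the background. The interval excluded no change, whatever the fold, in 45.4% of the genes, against 45.8% of all. The ratio in 1 library went with that in the other across genes, with a Spearman correlation of 0.79 over 2096 genes and 0.95 over the 388 with at least 1000 last-exon reads in each library, as a description: the points share the gene and its 2 lengths.

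**Figure D1:**
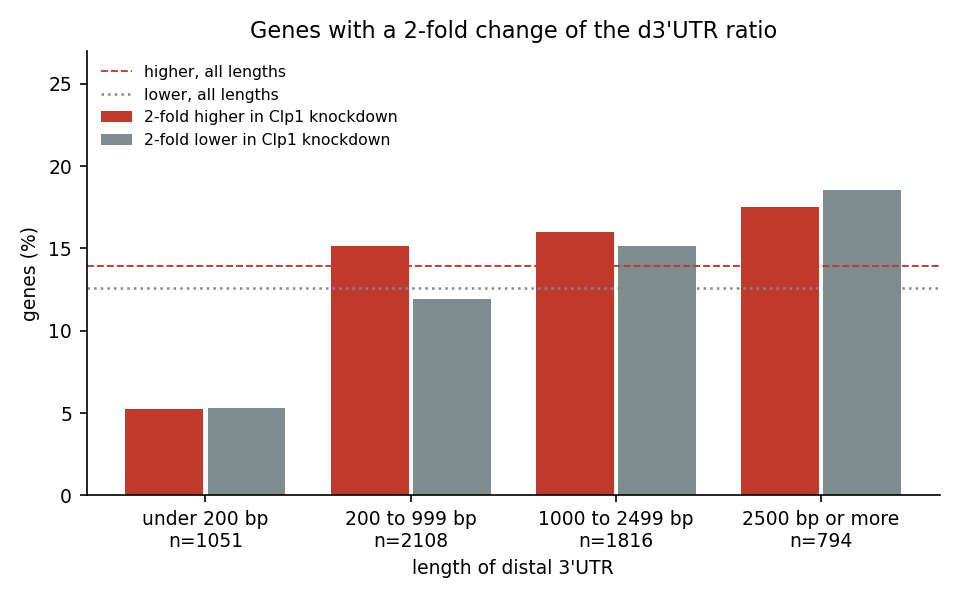
Percentage of genes (y axis) with a d3'UTR ratio at least 2-fold higher (red bars) or lower (grey bars) in Clp1 knockdown than in Ctr, with a counting interval that excludes no change, by length of the distal 3'UTR (x axis, n genes with at least 10 last-exon reads in each library); lines give the shares over all lengths. For 200 to under 1000 bp the bars stand at 15.1% and 11.9%, near the lines at 13.9% and 12.6%, while under 200 bp both stand near 5%.

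Distal 3'UTRs of other lengths were measured in the same way. At 1000 to under 2500 bp the median ratio was 0.527 in Clp1 knockdown and 0.510 in Ctr, with a median log2 change of 0.01. Of 1816 genes with at least 10 last-exon reads in each library, 290 (15.97%) were higher and 275 (15.14%) lower. At 2500 bp or more the median ratio was 0.376 and 0.356, with a change of 0.01. Of 794 genes with these reads, 139 (17.51%) were higher and 147 (18.51%) lower. The shares of both longer classes lie above the 15.1% and 11.9% at 200 to under 1000 bp. Under 200 bp the median ratio was 0.048 and 0.021 with a change of -0.09 (-0.17 to -0.02). There, 55 genes were higher and 56 lower (5.23% and 5.33%). Of the genes under 200 bp with an upstream read, 44.3% in Clp1 knockdown and 48.2% in Ctr had no distal read. Where neither library has one, the change is set by the upstream reads and the 0.5 reads added. The change under 200 bp can thus not be set against that of the class. A part so short holds few whole 50-base reads. The interval of the median log2 change at 200 to under 1000 bp overlaps those of both longer classes (-0.03 to 0.05 and -0.06 to 0.09). Within the class, the median ratio went with length, being 0.438 in Clp1 knockdown and 0.368 in Ctr at 200 to under 300 bp, and 0.613 in both at 800 to under 1000 bp. The median log2 change lay between 0.01 and 0.06 in every 1 of the 5 length bins, with overlapping intervals.

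Around the lower bound the median ratio was 0.440 in Clp1 knockdown and 0.489 in Ctr at 200 to under 210 bp, beside 0.345 and 0.512 at 190 to under 200 bp. Around the upper bound it was 0.648 in Clp1 knockdown and 0.601 in Ctr at 950 to under 1000 bp, beside 0.519 and 0.502 at 1000 to under 1050 bp. Rgs3, a regulator of G protein signalling and the shortest member with 100 reads in each library (200 bp), had 11 distal and 134 upstream reads in Clp1 knockdown against 8 and 255 in Ctr, a ratio of 1.04 in Clp1 knockdown against 0.399 in Ctr with an interval of the log2 change from -0.10 to 2.94. Just below the bound, Hspa5, a chaperone of the endoplasmic reticulum (1 bp shorter than the bound), had 0.474 in Clp1 knockdown against 0.475 in Ctr. Cinp (1 bp under the upper bound) had 0.418 against 0.608, with an interval from -1.20 to 0.12, and Nploc4, just above the bound at 1000 bp, had 0.320 against 0.350. None of these 4 met the rule for a higher or lower ratio.

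The ratios were compared by read level. Genes were sorted by last-exon reads summed over both libraries. At 10 to under 100 reads (258 genes) the median ratio was 0.349 in Clp1 knockdown (227 genes with an upstream read) and 0.021 in Ctr (167 genes). The distal part had no read in 32.2% of the genes in Clp1 knockdown and 49.7% in Ctr. The depth differed, with a median of 28 last-exon reads in Clp1 knockdown and 9 in Ctr. Genes of any distal length had median ratios of 0.138 and 0 at this level. Only 82 of the 258 genes had 10 reads in each library. Their median log2 change was 0.57 with an interval of -0.13 to 1.05 that holds 0, and 16 were higher and 12 lower. This median depended on the choice of transcripts and levels, at 0.70 (0.40 to 1.31) over every transcript and 0.09 (-0.19 to 0.37) with levels set by upstream reads alone. At 100 to under 1000 reads (1105 genes) the medians were 0.495 in Clp1 knockdown and 0.453 in Ctr, with a median log2 change of 0.03 (-0.03 to 0.13), and 207 genes (19.8%) were higher against 174 (16.6%) lower. At 1000 to under 10000 reads (920 genes) they were 0.609 in Clp1 knockdown and 0.602 in Ctr, with a change of 0.04 (-0.0033 to 0.07), and 94 genes (10.2%) were higher against 65 (7.07%) lower. In the 59 genes with 10000 reads or more they were 0.830 in Clp1 knockdown and 0.817 in Ctr, with a change of 0.01 (-0.06 to 0.09), and 2 genes were higher and none lower. Both libraries had higher medians at each higher read level. The level counts the distal reads that the ratio also holds, so this order is not independent of the ratio. The intervals of the libraries overlapped at every level from 100 reads on.

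The middle 50% of the log2 changes narrowed with depth, being 3.62 wide at 10 to under 100 reads, 1.81 at the next level, 0.63 at 1000 to under 10000 and 0.24 at 10000 or more. The share of genes whose counting interval excluded no change did not narrow in the same way, at 34.1%, 45.0%, 46.5% and 49.2%. Over genes of any distal length, 19.3% were higher and 17.4% lower at 100 to under 1000 reads, and 8.59% and 7.80% at 1000 to under 10000, close to the shares of the class.

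**Figure D2:**
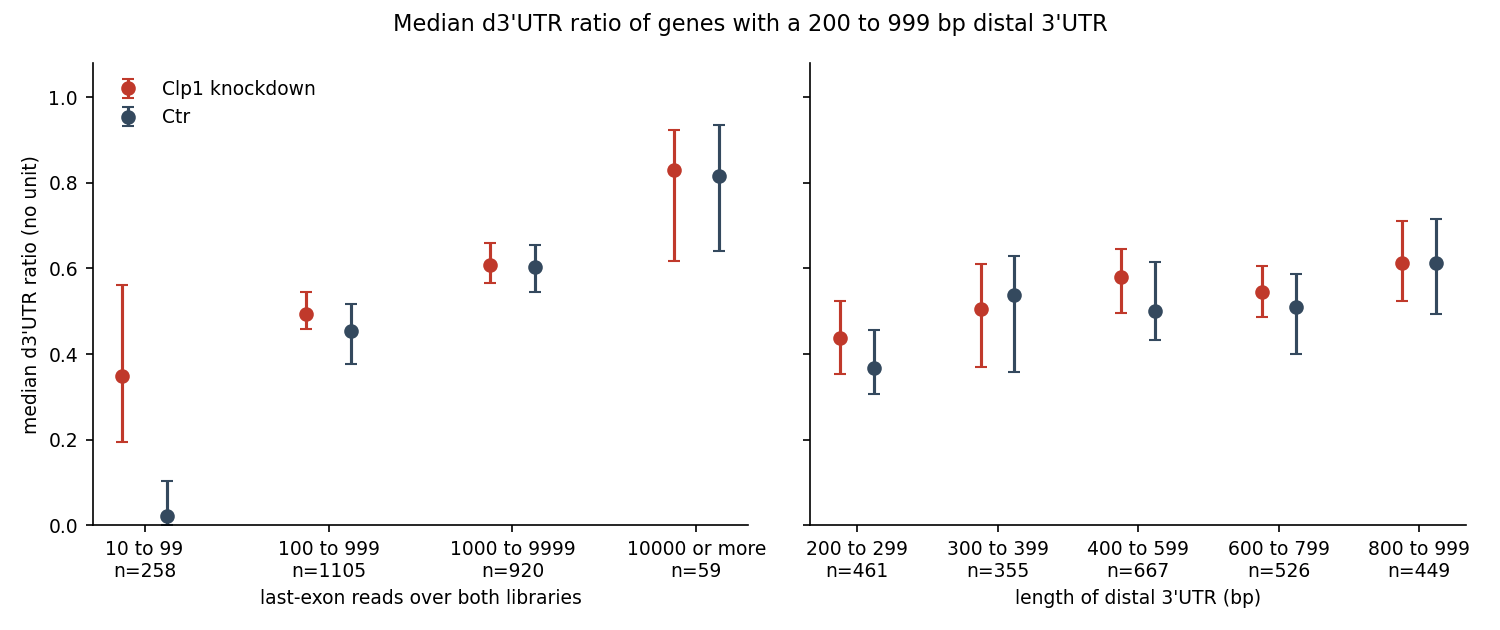
Median d3'UTR ratio (y axis, no unit) of genes with a distal 3'UTR of 200 to under 1000 bp in Clp1 knockdown (red) and Ctr (dark blue), by last-exon reads over both libraries (left) and by length of the distal 3'UTR in bp (right); bars are 95% intervals of the median across genes and n counts the genes in each bin. The libraries part at 10 to under 100 reads, at 0.349 and 0.021, where the median gene had 28 last-exon reads in Clp1 knockdown and 9 in Ctr. They nearly coincide from 1000 reads on.

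**Figure D3:**
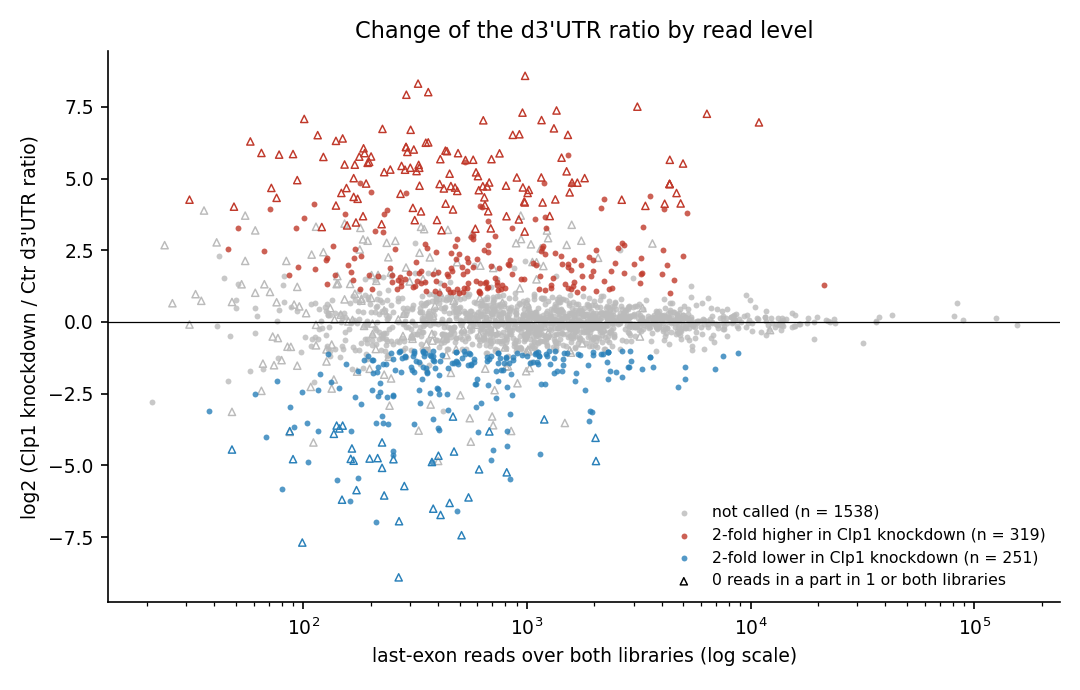
Log2 ratio of the d3'UTR ratio in Clp1 knockdown over that in Ctr (y axis) against last-exon reads over both libraries (x axis, log scale) for the 2108 genes with at least 10 reads in each, with those at least 2-fold higher (319, red), lower (251, blue) or not counted as either (grey); triangles are genes with 0 reads in a part, whose height depends on the 0.5 reads added. The spread narrows to the right, and few genes with 10000 reads or more lie away from 0.

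Genes with the most reads show what a ratio looks like where counting error is small. B2m, the light chain of MHC class I, had 38487 distal and 57716 upstream reads in Clp1 knockdown against 24149 and 34017 in Ctr, a ratio of 0.818 against 0.871 and a log2 change of -0.09 (-0.12 to -0.06). Egr1, an immediate early transcription factor, had 1.003 in Clp1 knockdown against 0.960 in Ctr (change 0.06, interval 0.01 to 0.11). Both transcripts thus ran mostly past their proximal pA in both libraries. Ubd, a ubiquitin-like modifier typical of mTEChi, had 0.311 against 0.285 (0.13, interval 0.08 to 0.18), and Jun, a subunit of AP-1, had 0.133 against 0.116 (0.20, interval 0.10 to 0.30). Ly6e, a GPI-anchored surface protein, had 285 distal reads beside 46660 upstream ones in Clp1 knockdown and 143 beside 36859 in Ctr, so that its ratio was 0.009 against 0.006 (0.65, interval 0.36 to 0.96). H2-Eb1, a chain of MHC class II, had 0.013 against 0.011 (0.24, interval 0.01 to 0.47). In these 6 genes the change was under 2-fold, and it was above 0 in all but B2m.

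The 8 genes with the highest lower bound of the change all had no distal read in Ctr. Pes1, a factor of ribosome assembly, had 210 distal and 404 upstream reads in Clp1 knockdown against 0 and 367 in Ctr. Its ratio was 63.6-fold higher when 3 reads are taken as the floor of a count of 0. A fold with this floor is not a minimum, as the counting interval of Pes1 reaches lower, to a log2 change of 5.66. The folds of the other genes with a count of 0 use the same floor. Rabgap1l, a GTPase-activating protein of Rab GTPases, had 78 and 82 reads in Clp1 knockdown against 0 and 166 in Ctr (52.6-fold higher). Arhgef10, a guanine nucleotide exchange factor, had 56 and 93 against 0 and 213 (42.8-fold higher). In Ctr the reads of these genes stopped before the distal part, although their whole-transcript level differed by less than 2-fold (log2 change 0.08 for Pes1, -0.49 for Rabgap1l and -0.40 for Arhgef10). Cnppd1 had 74 and 1371 reads in Clp1 knockdown against 0 and 1671 in Ctr (30.1-fold higher). Ctnnal1, a protein related to alpha-catenin, had 397 and 794 against 0 and 165 (27.5-fold higher), with a whole-transcript level that was also higher in Clp1 knockdown (log2 change 2.29). Mdh1, the cytosolic malate dehydrogenase, had 96 and 3502 against 0 and 2776 (25.4-fold higher), a ratio of only 0.016 in Clp1 knockdown. Slc7a6, an amino acid transporter, and Mtap, an enzyme of methionine salvage, were 21.8-fold and 21.6-fold higher. These 8 genes were named for the highest lower bound of the interval, so their size is a description.

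The largest changes downward were of more than 1 kind. Slc52a2, a riboflavin transporter, had 0 distal and 223 upstream reads in Clp1 knockdown against 34 and 194 in Ctr (13.0-fold lower with the same floor). Tle1, a transcriptional corepressor, had 0 and 207 against 31 and 143 (15.0-fold lower), and 9930021J03Rik had 0 and 192 against 47 and 172 (17.5-fold lower). Vasn had 6 and 700 reads against 79 and 356, a ratio of 0.059 against 1.52. In these 4 genes the distal reads were fewer in Clp1 knockdown. Gpatch2 had 125 distal and 450 upstream reads in Clp1 knockdown against 106 and 13 in Ctr, so that its ratio of 0.936 in Clp1 knockdown stood against 27.5 in Ctr through few upstream reads in Ctr. Gpsm2, a regulator of spindle orientation, likewise had 223 and 181 reads in Clp1 knockdown against 106 and 0 in Ctr. Ccdc166 had 1 and 158 against 156 and 173, and Txndc16 had 12 and 573 against 40 and 83. A ratio far above 1 means more reads per base beyond the proximal pA than before it, and whether reads of overlapping genes enter it could not be told, as no source used here says if strand was taken into account.

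**Figure D4:**
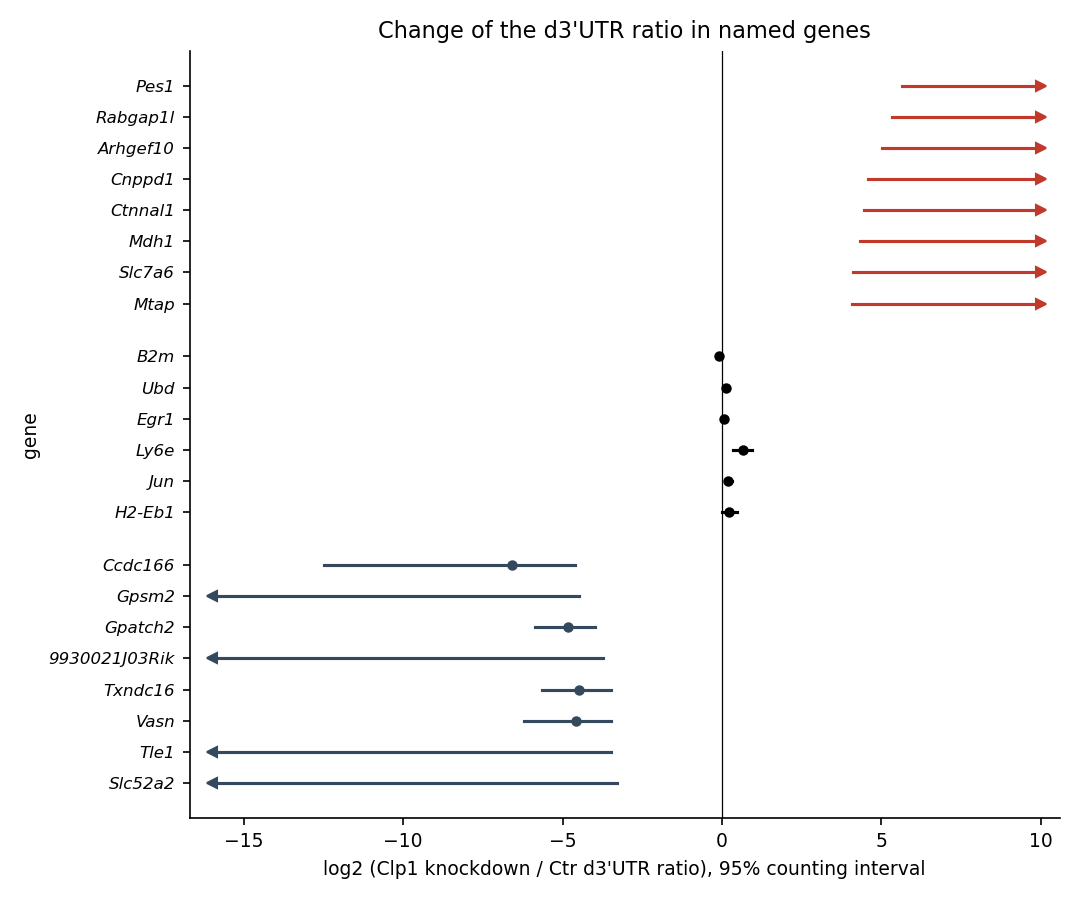
95% counting interval of the log2 ratio of the d3'UTR ratio in Clp1 knockdown over Ctr (x axis) for the 8 genes with the highest lower bound (red), the 6 with the most last-exon reads (black) and the 8 with the lowest upper bound (dark blue); points are the log2 change where every part had reads, and arrows are bounds that a count of 0 leaves without limit. The 6 abundant genes lie between -0.09 and 0.65, while the others were chosen for their distance from 0.

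Among the 1640 genes with at least 100 last-exon reads in each library, 50 (3.05%) had no distal read in Ctr and 20 or more in Clp1 knockdown, and 6 (0.366%) had none in Clp1 knockdown and 20 or more in Ctr. Over genes of any distal length these counts were 72 (1.62%) and 10 (0.224%) of 4457. Distal length goes with such counts. Among genes with an upstream read in Ctr, 48.2% had no distal read there under 200 bp and 16.5% in the class. At 1000 to under 2500 bp this share was 7.86%, and at 2500 bp or more 3.31%. What part length has in the shares of the class was not tested. Clp1 knockdown has more reads, and when its distal reads are scaled down to the last-exon total of Ctr, 32 of the 50 genes still reach 20. A count of 0 was thus more often on the Ctr side. In all, 65 of the 1640 genes had no distal read in Clp1 knockdown, 145 had none in Ctr, and 42 of them had none in either. Of the 50 genes, 49 met the rule for a higher ratio, 40 had whole-transcript levels within 2-fold, and 23 had fewer than 200 last-exon reads in Ctr. They include Uqcrc2, a subunit of respiratory complex III (100 distal and 795 upstream reads in Clp1 knockdown against 0 and 425 in Ctr), Ehmt1, a histone methyltransferase (78 and 496 against 0 and 290), Gcat (52 and 785 against 0 and 687) and Yipf4 (48 and 2834 against 0 and 1469). Tnfsf13 and Tnfsfm13, 2 entries of 1 locus, hold the same reads (24 and 110 against 0 and 154), and Pex2, a peroxisomal protein, is counted with 2 transcripts without a symbol that hold its reads (23 and 2705 against 0 and 1614), so the 50 rest on 47 sets of reads. The 6 genes the other way are 9930021J03Rik, Tle1, Slc52a2, Ccdc51, Cnn1 and P2ry2. These genes were picked out after their values were seen.

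The hexamers before the sites went with the level of the ratio. Of the genes, 1976 (80.4%) could be placed on the mm9 genome. In the 50 bases before the proximal pA, AATAAA was found in 42.5%, ATTAAA without AATAAA in 13.8%, and neither in 43.7%. Before the annotated end these shares were 58.0%, 16.6% and 25.3%, and in 50 bases at the middle of the distal part 3.34%, 2.48% and 94.2%. Only the strand of the gene was read. Genes of any distal length had 40.4%, 14.2% and 45.4% at the proximal pA and 59.4%, 16.5% and 24.1% at the end, so that the class does not stand apart. AATAAA began at a median of 21 bases before the proximal pA (middle 50% from 19 to 24) and 24 before the annotated end (21 to 27).

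Where AATAAA preceded the proximal pA, the median ratio was 0.320 in Clp1 knockdown and 0.268 in Ctr. With ATTAAA it was 0.472 in Clp1 knockdown and 0.489 in Ctr, and with neither 0.851 in Clp1 knockdown and 0.783 in Ctr. The ratio was lower with the canonical hexamer than without one in both libraries. With AATAAA at the proximal pA and no hexamer at the end it was lowest, at 0.163 in Clp1 knockdown and 0.082 in Ctr (197 genes). With no hexamer at the proximal pA and AATAAA at the end it was highest, at 0.937 in Clp1 knockdown and 0.885 in Ctr (510 genes). With at least 1000 last-exon reads over both libraries the order was the same, at 0.361 and 0.350 for AATAAA, 0.596 and 0.637 for ATTAAA, and 0.878 and 0.882 for neither (Clp1 knockdown and Ctr). Of the printed lines, Ly6e, Fezf2 and Jun have AATAAA at the proximal pA, with a hexamer in the 50 bases before the end as well, and Dusp1 and Cnot8 have no hexamer at the proximal pA and AATAAA at the end.

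The change between the libraries went less clearly with the hexamer. The median log2 change was 0.09 (0.02 to 0.15) with AATAAA at the proximal pA, with 134 of 716 genes (18.7%) higher and 93 (13.0%) lower. It was -0.04 (-0.13 to 0.06) with ATTAAA, with 42 of 248 higher and 41 lower, and 0.02 (-0.02 to 0.06) with neither, with 76 of 745 (10.2%) higher and 71 (9.53%) lower. The 3 intervals overlap. With at least 1000 last-exon reads over both libraries the median was 0.09 (0.03 to 0.15) with AATAAA, with 48 of 315 genes (15.2%) higher and 22 (6.98%) lower. It was -0.04 (-0.15 to 0.05) with ATTAAA (11.1% higher, 11.1% lower) and 0.03 (-0.02 to 0.06) with neither (4.11% and 3.84%), and these intervals overlap too. For genes of any distal length the medians were 0.02 with AATAAA, -0.01 with ATTAAA and 0.00 with neither, and 16.4% were higher and 13.5% lower with AATAAA. With ATTAAA 14.4% were higher and 14.0% lower, and with neither 11.2% and 11.2%. Of the 50 genes without a distal read in Ctr, 25 had AATAAA, 9 ATTAAA, 6 neither, and 10 were not placed on the genome. Among genes with at least 100 last-exon reads in each library, these are 4.57% of 547 with AATAAA and 4.86% of 185 with ATTAAA. They are 1.01% of 596 with neither and 3.21% of 312 not placed. In the printed lines, Rabgap1l, Ctnnal1 and Mdh1 have AATAAA and Pes1 has ATTAAA before the proximal pA. Slc52a2 and Pcf11, whose ratios were lower in Clp1 knockdown, have AATAAA there as well.

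**Figure D5:**
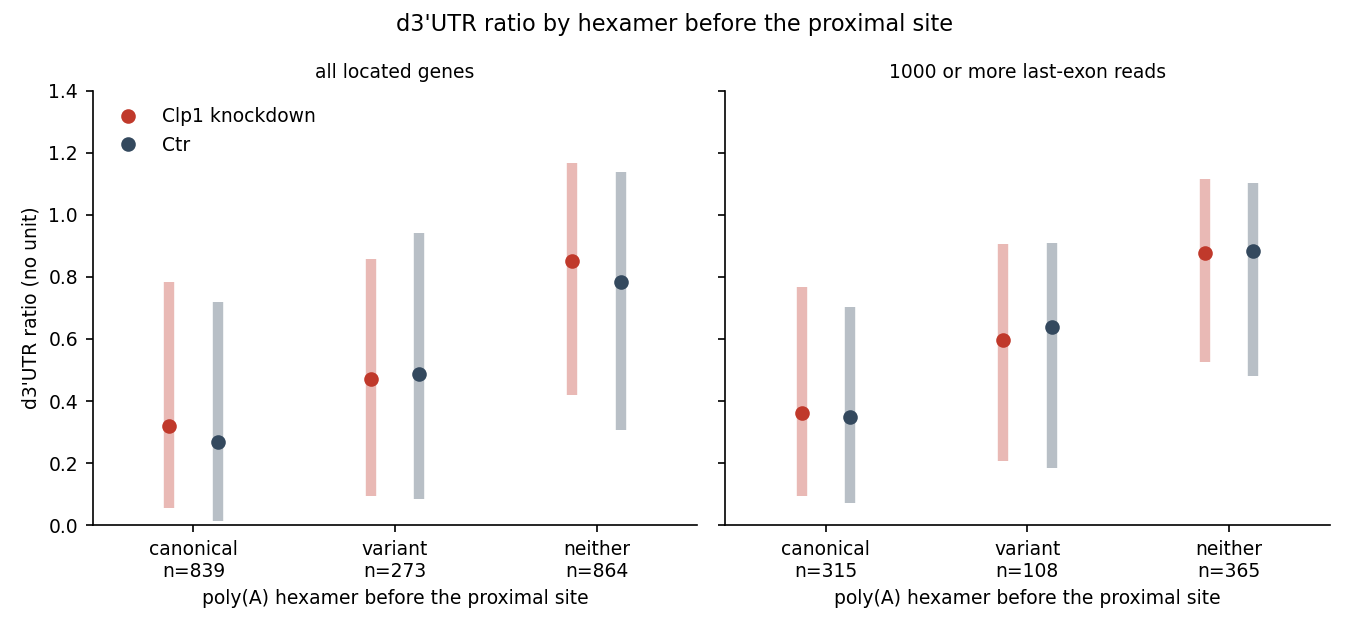
d3'UTR ratio (y axis, no unit) in Clp1 knockdown (red) and Ctr (dark blue) by the poly(A) hexamer in the 50 bases before the proximal pA (canonical, its commonest variant, or neither; n genes), for all genes placed on the genome (left) and those with at least 1000 last-exon reads over both libraries (right); points are medians and bars the middle 50% of genes. The medians stand at 0.320 and 0.268 with the canonical hexamer and at 0.851 and 0.783 with neither.

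Aire-sensitive genes are those raised by Aire in mTEChi, listed on the basis of other libraries. They made up 297 of the 2458 genes. Their median ratio was 0.368 in Clp1 knockdown and 0.179 in Ctr, against 0.559 in Clp1 knockdown and 0.523 in Ctr for the other genes of the class. Their median log2 change was 0.25 (0.02 to 0.54, 145 genes with 10 reads in each library), with 29 of them higher and 19 lower, and that of the other genes was 0.03 (-0.0033 to 0.06, 1963 genes), with 290 (14.8%) higher and 232 (11.8%) lower. The intervals overlap, and the Aire-sensitive genes had few reads, with a median of 30 last-exon reads in each library. With at least 50 reads in each library their median change was 0.08 (-0.15 to 0.34, 84 genes), with 16 higher and 9 lower. At 100 to under 1000 reads the Aire-sensitive genes had a ratio of 0.373 in Clp1 knockdown and 0.334 in Ctr and a change of 0.32 (-0.19 to 0.66, 96 genes), beside 0.03 in the other genes (-0.05 to 0.11). At 1000 to under 10000 reads, with 24 Aire-sensitive genes, the ratio was 0.840 in Clp1 knockdown and 0.848 in Ctr and the change 0.05 (-0.20 to 0.17). Over Aire-sensitive genes of any distal length the median change was 0.08 (-0.09 to 0.29, 382 genes), with 17.8% higher and 13.9% lower.

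Single Aire-sensitive genes, picked after their values were seen, show the same range. Among those with the most reads were Depp1 (0.831 in Clp1 knockdown against 0.798 in Ctr), Gm2a, the activator of ganglioside breakdown (log2 change 0.01), Rnd3, a small GTPase (1.05 against 0.947), and Tm4sf1 (0.085 against 0.078), all with intervals that hold no change. Their whole-transcript levels had log2 changes of -1.68 (Depp1), -1.23 (Gm2a), 0.03 (Rnd3) and -3.97 (Tm4sf1). Ccl6, a chemokine, had 256 distal and 1262 upstream reads in Clp1 knockdown against 262 and 2584 in Ctr, a ratio of 0.216 against 0.108 (interval of the log2 change 0.73 to 1.27). Its whole-transcript level was lower in Clp1 knockdown (log2 change -1.32). Ccr1, a chemokine receptor, had 37 and 157 reads in Clp1 knockdown against 0 and 159 in Ctr, and Hebp2 47 and 158 against 0 and 107. In the other direction, Cnn1, a calponin of smooth muscle, had 0 and 125 reads against 26 and 225, and Apod, a lipocalin, had 13 and 509 against 67 and 770 (log2 change -1.73, interval -2.76 to -0.88).

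Genes of 3' end processing themselves were few. Of 21 core factors 2 had a distal 3'UTR of this length. Pcf11, the partner of Clp1 in cleavage factor II, had 57 distal and 118 upstream reads in Clp1 knockdown against 54 and 9 in Ctr, a ratio of 0.467 against 5.80 and a log2 change of -3.56 (-4.92 to -2.47) that rests on 9 upstream reads in Ctr. Pabpn1, the nuclear poly(A)-binding protein, had 0.102 against 0.119 (-0.22, interval -0.59 to 0.15). Of 4 members among the other poly(A) factors, Pabpc1, the cytoplasmic poly(A)-binding protein, was higher, with 762 and 84 reads in Clp1 knockdown against 349 and 112 in Ctr, a ratio of 1.56 against 0.537 (1.54, interval 1.08 to 2.01). Its upstream part is only 65 bp long, and it has near-identical copies in the genome. None of the 5 members that bind AU-rich elements or degrade mRNA, which include the deadenylases Cnot7 and Cnot8 (ratios of 1.05 and 0.786 in Clp1 knockdown against 1.19 and 0.857 in Ctr), was higher or lower by the rule, nor was Dgcr8 of the microRNA pathway (0.800 against 1.34). Of 12 splicing factors 1 was higher and none lower. This was Hnrnpa2b1, with 86 and 2244 reads in Clp1 knockdown against 7 and 914 in Ctr (2.23, interval 1.21 to 3.69). The most abundant, Srsf2, had 1.30 in Clp1 knockdown against 1.10 in Ctr (0.24, interval 0.15 to 0.34).

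Marker genes of mTEChi and of other cells with a distal 3'UTR of this length were measured in the same way. Fezf2, a transcription factor that controls tissue antigens in mTEChi, had 14 distal and 7226 upstream reads in Clp1 knockdown against 4 and 3186 in Ctr, a ratio of 0.006 against 0.004 (interval of the log2 change -1.05 to 2.69). Cd40, a receptor needed for mTEC growth, had 0.680 in Clp1 knockdown against 0.455 in Ctr (0.58, interval 0.37 to 0.79). Epcam, an epithelial adhesion molecule, had 0.148 against 0.162 (-0.14, interval -0.35 to 0.09). The cathepsin gene Ctsl, from the list of cortical epithelium, had 88 distal and 6350 upstream reads in Clp1 knockdown against 0 and 4455 in Ctr. With the floor of 3 reads its ratio was 20.6-fold higher, and it was still only 0.009 in Clp1 knockdown. Among genes of other cells, the collagen gene Col3a1 had 8 and 92 reads in Clp1 knockdown against 0 and 855 in Ctr, with a whole-transcript level far lower in Clp1 knockdown (log2 change -3.95). Eng, of endothelium, had 0.279 against 0.359 (-0.32, interval -1.37 to 0.54), and of mural cells Rgs5 had 0.735 against 0.537 (0.45, interval 0.27 to 0.64) and Acta2 0.037 against 0.073 (-0.99, interval -1.64 to -0.37). On the list of fibroblasts and mural cells 2 of 5 changes were above 0, with a median of -0.05. Without the 14 genes on marker lists of other cells, an alternative chosen after seeing the data, 317 genes were higher and 251 lower, and the median log2 change was 0.04.

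Other lists chosen for this tissue had few members each. The 5 immediate early genes, which include Dusp1, a phosphatase of MAP kinases (1.05 in Clp1 knockdown against 1.02 in Ctr), had changes above 0 with none at 2-fold. Of 7 small GTPases 1 was higher and none lower. This was Hras, with 28 and 1070 reads in Clp1 knockdown against 1 and 1101 in Ctr (4.29, interval 2.25 to 10.2), while Arf1, of vesicle traffic, had 1.49 against 1.39 and Rhoa, of the actin cytoskeleton, 0.370 against 0.332. The 4 chaperones had no 2-fold change, and the most abundant were lower in Clp1 knockdown by less than that: Dnajb1 had 0.617 against 0.756, Pdia3 0.025 against 0.034 and Pdia6 0.074 against 0.119, with intervals below 0. Of the proteasome genes Psma3 was higher, with 308 and 608 reads in Clp1 knockdown against 111 and 497 in Ctr (1.18, interval 0.82 to 1.55), and Psmd12 was lower, with 190 and 636 against 71 and 104 (-1.19, interval -1.70 to -0.67). Of the 3 interferon-stimulated genes Oas1a was lower, with 0 and 516 reads against 10 and 286 (6.01-fold with the floor of 3 reads). Of the 5 cell cycle genes Aurka, a mitotic kinase, was lower, with 39 and 212 reads against 38 and 90 (-1.19, interval -1.98 to -0.41). Hnrnpa2b1, Hras and Aurka were named for being the ones past the rule on their lists. Cd47, whose long isoform is known in human cells to guide the protein to the surface, had 0.584 in Clp1 knockdown against 0.842 in Ctr (-0.53, interval -0.70 to -0.35).

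Whole-transcript levels were compared with the ratios. Of 2378 genes with 10 reads in sum, 414 (17.4%) were 2-fold or more higher in Clp1 knockdown and 334 (14.0%) lower, against 21.9% and 19.6% of all 18993 genes tested in that way, and the median log2 change was 0.08. In the Aire-sensitive genes of the class it was -0.43 (-0.77 to -0.08), with 74 of 248 (29.8%) higher and 104 (41.9%) lower. Of these, 4 are on the marker lists of other cells, namely Cd79a and Cd22 of B cells (log2 change in level -4.46 and -5.92), Ptprc of white blood cells (-1.30) and Enpep of cortical epithelium (0.07). Without the 4, an alternative chosen after seeing the data, the median was -0.42 (-0.75 to -0.05, 244 genes), and what part RNA of other cells outside the lists has in it was not tested. Genes with a higher d3'UTR ratio had a median log2 change in level of 0.07 (-0.08 to 0.24), those with a lower ratio 0.05 (-0.09 to 0.18), and the others 0.09 (0.04 to 0.13), so that the 3 intervals overlap. Taking reads outside the last exon only, which the ratio does not use, the medians were -0.01, 0.06 and 0.06. Across genes, the Spearman correlation between the change of the ratio and that of reads outside the last exon was -0.08 over 2035 genes and -0.20 over the 380 with 1000 last-exon reads in each library, as a description of points that share their libraries. The distal parts had a median GC content of 41.8% and the upstream parts of 47.3%, and the same correlation between the change of the ratio and the GC difference of the 2 parts was -0.02 over 1709 genes and -0.10 over the 304 with 1000 last-exon reads in each library.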

How the data were processed

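Total RNA of Clp1 knockdown and Ctr mTEChi (1 library each) had been made into libraries with the SMARTer Ultra Low Input and Nextera kits and sequenced as 50-base single-end reads. Per the submitters' processing notes, the authors used Bowtie 1.0.0, the mm9 genome, bedtools and DESeq. The deposited tables hold counts of reads that lie wholly inside a RefSeq transcript or inside a part of it, without normalization, so a read across the proximal pA is counted in neither part. The proximal pA is the most proximal PolyA_DB 2 site. The authors' table of differential expression (scaled counts, folds and p-values) was not used.

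The d3'UTR ratio needs no scaling between libraries. Its log2 change had 0.5 reads added to each part, and an exact conditional 95% interval of the odds ratio. The rule for a higher or lower ratio needed at least 10 last-exon reads in each library, 2-fold, and an interval that excludes no change. Medians carry binomial order-statistic intervals across genes. Counts of whole transcripts were divided by median-of-ratios size factors (1.14 for Clp1 knockdown, 0.877 for Ctr), with Clopper-Pearson intervals. Counting intervals cover counting error only, and the floor of 3 reads only that of the count of 0, since PCR copies of a molecule cannot be told apart here. Transcripts were placed on mm9 by the last coding exon of GENCODE vM1, with lengths that match within 100 bp. Symbols came from a RefSeq table. Members, lists and rules were chosen with earlier results of these data known. Named were the 8 genes with the highest lower and the 8 with the lowest upper bound of the interval, and the 6 with the most reads, all with at least 100 last-exon reads in each library, the genes at the length bounds, and the 3 with the most reads on each list. Of the genes, 17 share counts and lengths with another entry. Python 3.11.15, numpy 2.4.6, pandas 2.3.3, scipy 1.17.1 and matplotlib 3.10.9 were used, and the scripts were tested on simulated data.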

Additional observations from a re-analysis of the deposited data

How the results depend on the processing

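No paired analysis was possible because each group has 1 library. Of 69 alternatives of the summary values, 60 stayed within the interval of the main median or within 1.5 times the main count. The log2 ratio of the 2 library medians was 0.15, above the median log2 change per gene of 0.037, and the libraries' medians rest on different numbers of genes. A 4-fold rule left 210 genes higher and 111 lower, against 319 and 251 at 2-fold. The share over genes of any distal length was not taken at 4-fold, so these counts have no background. Where a library has no distal read, the fold depends on the 0.5 reads added. Of 1640 genes with at least 100 last-exon reads in each library, 145 had none in Ctr and 65 none in Clp1 knockdown. For Aire-sensitive genes, 50 reads in each library left 16 higher and 9 lower, and levels within 2-fold left 12 and 6, against 29 and 19, because fewer genes were tested; their median change was then 0.08 (-0.15 to 0.34) and 0.29 (-0.15 to 0.53). With a 30-base window, 52.4% of proximal sites and 65.1% of annotated ends had a hexamer, against 56.3% and 74.7% with 50 bases. The interval of the median log2 change over the class held 0 with 1, 50 or 100 reads in each library, with every transcript, with levels within 2-fold, in the middle 50% of GC differences, and when counts of 0 were set to 3 reads (an alternative chosen after seeing the data, -0.0020 to 0.06). The call of each of the 117 named genes was the same with 0.1 or 1 read added. The depth limits what genes under 100 last-exon reads can show, and nothing here bears on the spread between mice.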
